A study of Mus musculus with 26 samples.

Results

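The genes described here encode the Meis, Pbx and Pknox proteins, taken at their promoters in ChIP and ChIP-reChIP data from mouse embryonic stem cells (ESCs). The 8 members are Meis1, Meis2, Meis3, Pbx2, Pbx3, Pbx4, Pknox1 and Pknox2, out of 26109 RefSeq genes with a curated transcript. A region of a deposited table was assigned to a member when it overlapped the stretch 1.5 kb either side of a start site (mm10), and for each gene and table the region with the most bases in that stretch was kept. There were 12 tables and therefore 96 combinations of gene and table, and 75 of them held a region.

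Meis, Pbx and Pknox proteins are homeodomain transcription factors of the TALE class, named for a three-residue loop extension in the homeodomain. Meis and Pknox (also known as Prep) proteins form dimers with Pbx proteins, and these complexes bind DNA together with Hox proteins during patterning of the limbs, hindbrain and haematopoietic system. In ESCs, promoters of many developmental genes carry H3K4me3, a mark of active promoters, together with H3K27me3, the mark deposited by Polycomb repressive complex 2. Promoters with both marks on one stretch of chromatin are called bivalent.

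ChIP-reChIP measures this by a second immunoprecipitation of the chromatin recovered in the first. K4-K27 denotes H3K4me3 followed by H3K27me3, K27-K4 the reverse order, and total H3K4me3 and total H3K27me3 are material set aside after the first ChIP. The 26 libraries came from E14 ESCs that are not clonal (genotype WT, replicates 1 and 2, sequencing batches A and B), from wild type (WT) clones 57 and 58, and from DPPA2/4 double knockout (DKO) clones 43 and 53 (all clones in batch C). All cells are E14 ESCs in serum and LIF, and the clones are established lines that each stand for 1 knockout or control event. Each of the 4 ChIPs was made once per replicate or clone, and 1 IgG–IgG reChIP came from E14 replicate 1 and 1 from WT clone 57. Because E14 cells and clones were sequenced in different batches, the line and the batch cannot be told apart, and their values are set side by side with no test.

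Between 6741244 and 47903462 reads lay behind the values of a library. Total H3K4me3 of WT clone 57 stood above that of clone 58 over the 12983 shared promoter regions described below, with medians of 2.37 and 1.15, and E14 replicate 2 stood above replicate 1 in both reChIPs (K27-K4 medians of 2.29 and 1.13). At the promoters of pluripotency factors, total H3K4me3 regions were listed for 7 of 7 genes in E14, WT and DKO tables, and total H3K27me3 regions for 1, 1 and 0 of 7. The same genes had K4-K27 regions for 6, 7 and 7 of 7 and K27-K4 regions for 7, 2 and 2 of 7, so a listed reChIP region does not by itself show total H3K27me3 at a promoter. The neural markers had total H3K4me3 regions for 3 of 3 genes in every line, with total H3K27me3 regions for 2, 2 and 3 of 3, and those of primitive endoderm had total H3K27me3 for 2, 3 and 3 of 3 and those of trophoblast for 1 of 3 in each line. These marks show promoter state and do not measure expression. The targeted genes had total H3K4me3 at their promoters in all clones, with Dppa2 at 1.9 and 0.77 in WT clones 57 and 58 and at 2.08 and 1.34 in DKO clones 43 and 53. Dppa4 stood at 2.34 and 1.45 in the WT clones and at 2.39 and 1.56 in the DKO clones. The deleted parts are not given in the sources used here, so the promoter signal does not check the knockout.

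Members differed first in the tables that listed them. All 3 Meis genes, all 3 Pbx genes and both Pknox genes had a K4-K27 region in the E14, WT and DKO tables, where 58.8%, 59.5% and 57.9% of all genes had one. Total H3K4me3 regions were present for 7 members in E14 cells, where Pbx3 had none, and for all 8 in both clone tables, against 53.3%, 60.3% and 56.2% of all genes. Total H3K27me3 regions were listed for fewer members. Within 1.5 kb of a start site the E14 table listed Pknox2 alone, the WT table Meis2, Meis3 and Pknox2, and the DKO table Meis1, Meis2, Meis3 and Pknox2, where 12.1%, 15.8% and 17.6% of all genes had a region. Pbx2, Pbx3, Pbx4 and Pknox1 had no total H3K27me3 region in that window in any of the 3 tables. With 5 kb either side, the E14 table listed Meis1, Meis3 and Pbx3 as well, and the WT table Meis1. All 4 combinations gained with the wider window were in total H3K27me3, and the Pbx3 region, of 900 bp, was at chr2:34374601-34375500. Pbx2, Pbx4 and Pknox1 had none within 5 kb either. In K27-K4 all 8 members were listed in E14 cells (66.3% of all genes), and 6 in the WT and in the DKO tables (33.8% and 32.2%), with Pbx2 and Pknox1 missing from both.

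The E14 K4-K27 and K27-K4 tables gave each member the same region, to the base, which puts all libraries on 1 stretch per gene. Such shared regions numbered 21857, and 12983 of them lay at promoters, with a median width of 4050 bp. The Meis genes had wide ones. Meis2 lay in chr2:116058301-116079900, 21600 bp wide and wider than 98.6% of the shared promoter regions, with 12456 bp upstream of its first start site, all 3 of its start sites inside, and those of 2810405F15Rik and G630016G05Rik as well. The Meis1 region, chr11:19006801-19023750, spanned 16950 bp (97.2% were narrower), with 12169 bp from the start site into the gene. For Meis3 it was chr7:16167901-16178850, 10950 bp wide, with 7494 bp of it upstream.

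Pknox2 resembled the Meis genes in width, at 11400 bp (chr9:37137901-37149300), most of it (9422 bp) inside the gene. The Pbx genes were mixed. Pbx2 had 13500 bp (chr17:34583251-34596750) that also held a start site of Gpsm3, so its values are shared with that gene. Pbx3 had 5550 bp (chr2:34369951-34375500) and Pbx4 3000 bp (chr8:69832201-69835200), of which 423 bp lay upstream. The Pknox1 region of 3450 bp (chr17:31564651-31568100) held 122 bp upstream of the start. All coordinates are mm10.

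**Figure D1:**
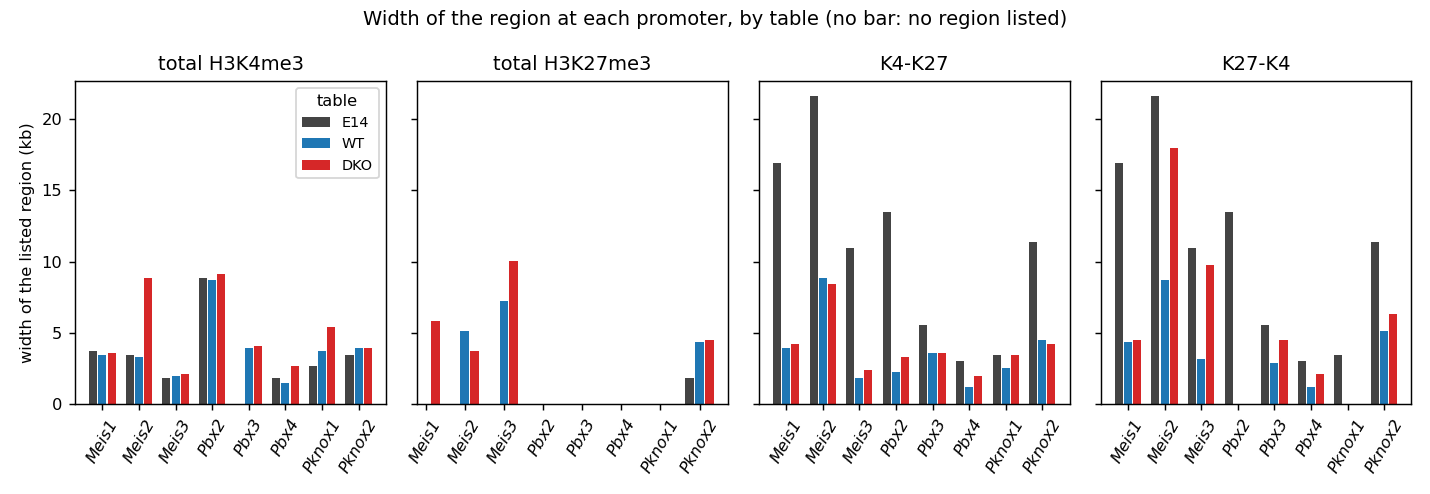
Width of the region kept for each member (kb, vertical axis) in the tables of each ChIP, with bars for the E14, WT and DKO tables and no bar where no region was listed. The E14 reChIP regions of Meis2 (21600 bp) are the widest, followed by its DKO K27-K4 region (18000 bp) and the E14 reChIP regions of Meis1 (16950 bp), and Pbx2, Pbx3, Pbx4 and Pknox1 have no bar for total H3K27me3.

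In the clone tables the reChIP regions of the listed members were narrower than in E14 cells, apart from Pknox1 with 3450 bp in the DKO K4-K27 table. The tables as a whole were narrower too, with median widths of 3000, 1350 and 1500 bp for K4-K27 in E14, WT and DKO and of 2400, 900 and 900 bp for K27-K4. The DKO K27-K4 table kept 18000 bp at Meis2 and 9750 bp at Meis3, against 8700 bp and 3150 bp in the WT table. The WT table held 2 regions within 1.5 kb of a Meis2 start site, and 2 within 5 kb of that of Meis3. The DKO table held 1 in each case, so the widths kept do not compare whole domains. Some total H3K27me3 regions lay beside the start sites and not over them. In DKO those of Meis1 (5850 bp) and Meis2 (3750 bp) lay inside the genes, and the E14 region of Pknox2 (1800 bp) lay upstream.

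The promoter sequences show the base composition on which these marks lie, since CpG-rich promoters commonly carry H3K4me3 and bivalent chromatin. Stretches upstream of a start site, outside exons of curated transcripts, are given 5′ to 3′ on the gene's strand for the Meis genes with the widest regions and for Pbx2 and Pbx4 (RefSeq, GRCm38.p6), with CpG dinucleotides in capitals. For Meis2 the start site is one of those inside the gene. Meis1 is at chr11:19018970-19019219 on the minus strand, Meis2 at chr2:116064620-116064801 on the minus strand, Pbx2 at chr17:34592009-34592258 on the plus strand and Pbx4 at chr8:69832374-69832623 on the plus strand.
Meis1: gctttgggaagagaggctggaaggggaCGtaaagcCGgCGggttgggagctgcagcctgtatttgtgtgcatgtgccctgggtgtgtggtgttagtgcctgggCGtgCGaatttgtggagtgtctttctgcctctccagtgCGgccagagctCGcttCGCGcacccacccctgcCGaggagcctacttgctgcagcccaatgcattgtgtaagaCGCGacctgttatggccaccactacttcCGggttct
Meis2: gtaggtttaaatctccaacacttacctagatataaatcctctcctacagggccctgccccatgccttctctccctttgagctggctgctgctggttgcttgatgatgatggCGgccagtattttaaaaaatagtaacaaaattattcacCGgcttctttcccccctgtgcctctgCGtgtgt
Pbx2: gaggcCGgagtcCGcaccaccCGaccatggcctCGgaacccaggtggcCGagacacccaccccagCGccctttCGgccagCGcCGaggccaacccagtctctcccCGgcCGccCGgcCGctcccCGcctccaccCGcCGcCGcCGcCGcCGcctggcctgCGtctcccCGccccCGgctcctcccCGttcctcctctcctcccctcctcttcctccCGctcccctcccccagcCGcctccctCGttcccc
Pbx4: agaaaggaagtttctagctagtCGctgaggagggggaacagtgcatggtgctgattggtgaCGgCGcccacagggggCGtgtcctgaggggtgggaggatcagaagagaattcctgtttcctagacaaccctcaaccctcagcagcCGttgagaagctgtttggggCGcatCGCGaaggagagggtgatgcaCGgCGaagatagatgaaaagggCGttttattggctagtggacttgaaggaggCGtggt

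The Meis2 stretch of 182 bases held 3 CpG and had a GC content of 47.3%, and the Meis1 stretch of 250 bases held 13 CpG at 59.6% GC. Pbx2 held 27 CpG in 250 bases at 77.6% GC, and Pbx4 12 CpG at 55.6%. The promoter table covered 5 of the 8 members (Meis1, Meis2, Meis3, Pbx2 and Pbx4), each from 250 bases before to 50 after a start site. Over these 300 bases Meis1 held 15 CpG, Meis2 13, Meis3 21, Pbx2 29 and Pbx4 19, where the median of 32851 promoters was 7. The Meis motif TGACAG occurred in none of the 5 on either strand, and in 19.2% of all promoters of this length. The Pbx-Hox motif TGATTGAT was likewise found in none of them, against 0.746% of all promoters.

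Across the whole shared regions, the share of CpG did not follow the family names. Pknox1 had 5.57 CpG per 100 bp and Pbx3 5.39, above those of 96.6% and 95.8% of shared promoter regions, where the median was 2.83. Meis1 (2.56), Meis2 (2.59), Pbx4 (2.4) and Pknox2 (2.39) lay below the median. Meis3 had 1.34 CpG per 100 bp, lower than all but 1.41% of the regions, at a GC content of 52.5%. Pbx2 had 3.23 CpG per 100 bp and a GC content of 57%.

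The levels below are log2 RPM (reads scaled to library size) per kb of region in the shared region, so they are per length. The shared regions were chosen for their listing in both E14 reChIP tables, so E14 reChIP values above IgG–IgG are favoured by that choice and are given as a description. Levels are means over regions of 3000 to 21600 bp, so a narrow peak weighs less in a wide region, and levels between genes depend on the width read. Total H3K27me3 stood high at the Meis genes over these regions. For Meis1 it was 0.49 and 0.37 in E14 replicates 1 and 2, 1.39 and 0.64 in WT clones 57 and 58, and 1.13 and 0.49 in DKO clones 43 and 53. For Meis2 it was 0.27 and 0.06 in E14 cells, 1.26 and 0.56 in WT clones and 1.05 and 0.43 in DKO clones. Every one of these 12 values was above IgG–IgG, which stood at -0.81 in E14 cells for both genes and -0.21 for Meis1 and -0.35 for Meis2 in WT clone 57. Meis3 had 0.22 and 0.33 in E14 cells, 0.80 and 0.43 in WT and 0.43 and 0.66 in DKO, where IgG–IgG stood at -0.09 in E14 cells and -0.51 in WT clone 57. In the narrower total H3K4me3 regions of the E14 table, around the start sites, the Meis genes were less clearly above IgG–IgG. Meis1 (3750 bp) read 0.52 in WT clone 58 and 0.62 in DKO clone 53, which was 0.52 and 0.42 below IgG–IgG, and Meis2 (3450 bp) was 0.27 and 0.18 above it in E14 cells. Over its whole shared region, Meis1 ranked between the 76.6 and the 94.7 percentile of shared promoter regions in the 6 libraries. Meis2 ranked between 74.8 and 89.3, and Meis3 between 73.5 and 88.8. Pbx3 ranked at 89.4 and 79.6 in DKO clones 43 and 53, and between 63.7 and 71.6 in E14 cells and WT clones. DKO cells had no IgG–IgG library, so those of WT clone 57 were set beside them.

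Pknox2, a relative of Pknox1 in the Prep group, matched this level. Its total H3K27me3 was 0.36 and 0.30 in E14 cells, 1.10 and 0.51 in WT and 0.85 and 0.81 in DKO clones, within the range of the Meis values in each line.

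At the Pbx genes total H3K27me3 stood lower. Pbx2 read -1.0 and -1.33 in E14 cells, -1.11 and -0.95 in WT and -1.39 and -0.63 in DKO clones, and all 6 values lay below IgG–IgG (-0.14 and 0.36). Pbx4 read -0.68 and -1.02 in E14 cells, -0.43 and -0.64 in WT and -0.53 and -0.54 in DKO clones. Its E14 values were below IgG–IgG at -0.40 and its clone values above it at -1.23. Pknox1 was the lowest member in every library, at -1.95 and -1.83 in E14 cells, -1.18 and -1.29 in WT and -2.98 and -1.82 in DKO clones. As few as 8 reads lay behind the Pknox1 value of DKO clone 43, so its counting error is large. Pbx3 stood between the groups in E14 cells (-0.09 and -0.19) and WT clones (0.38 and -0.17), and overlapped the Meis genes in DKO clones (1.12 and 0.60). Its IgG–IgG values were -0.22 in E14 cells and 0.60 in WT clone 57, so its WT values were below IgG–IgG and that of DKO clone 53 was level with it.

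Total H3K4me3 ordered the members the other way round over the shared regions. In E14 cells Pknox1 read 0.83 and 1.25, Pbx2 0.87 and 0.95, Pbx3 0.62 and 0.97, and Pbx4 0.42 and 0.80. Meis1 read 0.08 and 0.33, Meis2 -0.14 and 0.11, Meis3 -0.03 and -0.27, and Pknox2 0.11 and -0.15. No value of the latter 4 genes reached the lowest of the former 4. The same was so within each clone. In WT clone 57 the Meis genes and Pknox2 read between 0.66 and 1.13, and the Pbx genes and Pknox1 between 2.35 and 3.11. In clone 58 the ranges were -0.02 to 0.42 and 1.15 to 1.57. In DKO clone 43 they were 0.40 to 0.95 and 2.07 to 2.51, and in clone 53 0.38 to 0.70 and 1.76 to 2.17. Meis3 was near background in E14 cells, with values over IgG–IgG of 0.06 and -0.19, and between 0.48 and 1.17 over it in the clones. The separation did not hold in the narrower total H3K4me3 regions of the E14 table. There Meis3 (1800 bp) read 1.10 in E14 replicate 1, above Pbx4 at 0.90 and Pknox1 at 1.09, and 1.88 in WT clone 58, above Pbx2 at 1.70, Pbx4 at 1.71 and Pknox1 at 1.78. Meis1 read 1.33 in E14 replicate 2, above Pbx4 at 1.31.

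**Figure D2:**
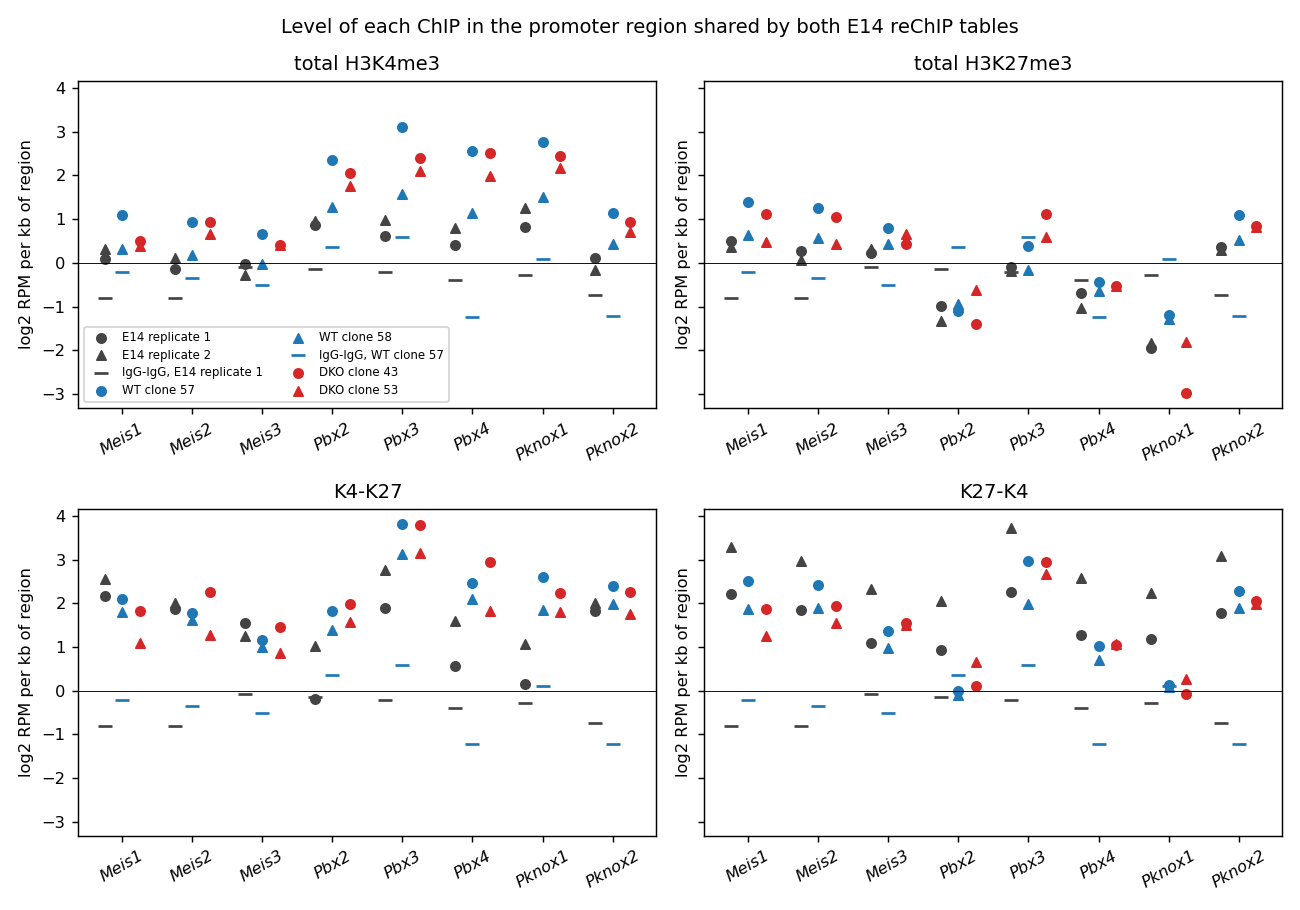
Level of each ChIP (log2 RPM per kb, vertical axis) in the shared region of each member, with circles and triangles for the 2 replicates or clones of E14 (grey), WT (blue) and DKO (red) and dashes for IgG–IgG. In total H3K27me3 the Meis genes and Pknox2 lie above 0 in all libraries and Pbx2, Pbx4 and Pknox1 below 0, and in K4-K27 and K27-K4 the highest clone values belong to Pbx3.

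The mean of the 3 Meis genes minus that of the 3 Pbx genes gives the family difference per library, as a description of these 6 genes. In total H3K4me3 it was -0.67 and -0.85 in E14 cells, -1.77 and -1.18 in WT clones and -1.71 and -1.48 in DKO clones. For total H3K27me3 the values were 0.92 and 1.10 in E14 cells, 1.54 and 1.13 in WT and 1.14 and 0.72 in DKO clones. Both totals therefore kept their sign in 6 of 6 libraries.

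The reChIPs did not order the families so evenly. K4-K27 was higher at the Meis genes in E14 cells (1.10 and 0.15) and at the Pbx genes in the clones (-1.02 and -0.73 in WT, -1.05 and -1.10 in DKO). K27-K4 was higher at the Meis genes in 5 of 6 libraries, with 0.23 and 0.09 in E14 cells, 0.77 and 0.72 in WT and 0.42 and -0.04 in DKO clones. Pbx3 alone stood above each Meis gene in K27-K4 in 6 of 6 libraries, and the mean of the Pbx genes was lowered by Pbx2 and Pbx4. The line and the sequencing batch cannot be told apart here.

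Meis2 read 1.88 and 2.02 in K4-K27 of E14 cells and 1.85 and 2.97 in K27-K4. The WT clones gave 1.78 and 1.61 for K4-K27, against 2.42 and 1.9 for K27-K4. The DKO clones gave 2.27 and 1.28 for the former and 1.94 and 1.54 for the latter. All 12 values lay above the IgG–IgG value of that region, which was picked from the E14 tables and not from those of the clones. Most shared promoter regions did the same, with medians of 2.67 and 2.06 above IgG–IgG for K4-K27 in WT clones 57 and 58 and of 2.55 and 1.93 in DKO clones 43 and 53. Meis2 ranked below the median there in K4-K27, between the 24.8 and the 42.5 percentile of these regions in the 4 clone libraries, and between the 77.1 and the 84.4 percentile in K27-K4 of the same clones. In E14 cells Meis1 had K4-K27 values of 2.16 and 2.56, with 2.20 and 3.30 for K27-K4. Pknox2, at 1.83 and 2.02 for K4-K27 and 1.78 and 3.07 for K27-K4, was close to Meis2 in the same cells.

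Pbx3, with no total H3K27me3 region within 1.5 kb of its start site, had high reChIP values over a shared region that held the E14 total H3K27me3 region of 900 bp further upstream. In K4-K27 it read 1.9 and 2.75 in E14 cells, 3.82 and 3.12 in WT and 3.78 and 3.14 in DKO clones, where it ranked between the 97.3 and the 99.4 percentile of shared promoter regions in the 4 clone libraries. In K27-K4 it read 2.25 and 3.72 in E14 cells, 2.97 and 1.99 in WT and 2.95 and 2.68 in DKO clones. IgG–IgG read -0.22 in E14 cells and 0.60 in WT clone 57. The 8 reChIP values of the clones, whose tables did not serve to pick the region, were above that background. So were the 4 of E14 cells, whose tables did.

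Pbx2 and Pknox1 differed between the orders of antibody in the clones, as did the medians of shared promoter regions. Those medians were 2.51 and 1.87 for K4-K27 in WT clones 57 and 58, and 0.76 and 0.50 for K27-K4. In DKO clones 43 and 53 they were 2.44 and 1.81, against 0.51 and 0.61. Pbx2 read 1.82 and 1.38 in K4-K27 of the WT clones but -0.02 and -0.11 in K27-K4, below IgG–IgG at 0.36. In DKO clones K4-K27 stood at 1.97 and 1.56, against 0.11 and 0.66 for K27-K4. Pknox1 read 2.6 and 1.83 in K4-K27 of the WT clones and 0.13 and 0.08 in K27-K4, where IgG–IgG was 0.10. Both were above IgG–IgG in K27-K4 of E14 cells, Pbx2 at 0.94 and 2.04 and Pknox1 at 1.19 and 2.23, in the cells whose tables listed them. In K4-K27 of E14 cells Pbx2 read -0.19 and 1.02, and the lower of these was below IgG–IgG at -0.14. Pbx4 lay between, with K27-K4 at 1.01 and 0.70 in WT and 1.04 and 1.07 in DKO clones.

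The balance of the totals, total H3K4me3 minus total H3K27me3 in the same region, asks which mark was the stronger at a promoter, in units of each ChIP's own library. It was tested with limma (robust, with a variance trend) over 81533 regions of the E14 tables, and calls required a balance beyond 1 either way and a Benjamini-Hochberg adjusted p under 0.05. In the shared regions 3 members were called toward H3K4me3 in E14 cells and 4 each in WT and DKO, and none toward H3K27me3. Calls were common over all regions, which include those of the tables made for the totals. They came to 57.9% in E14 cells (38.7% toward H3K4me3 and 19.2% toward H3K27me3), 44.2% in WT (33.5% and 10.7%) and 54% in DKO (34.8% and 19.2%). The split depends on the scaling: with libraries centred on their medians the regions called toward H3K27me3 rose from 15671 to 24984 in E14 cells and from 8740 to 23784 in WT.

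Pknox1 had the largest balance of the members in each line. It was 2.78 and 3.08 in E14 cells (mean 2.93, SE 0.37, limma adjusted p = 0.000392), 3.94 and 2.80 in WT clones (adjusted p = 1.13e-05) and 5.43 and 3.99 in DKO clones (mean 4.71, adjusted p = 6.92e-06). Pbx2 was called with means of 2.07 in E14 cells, 2.84 in WT and 2.93 in DKO, and Pbx4 with 1.46, 2.39 and 2.78. Shared promoter regions leaned the same way. Their median total H3K4me3 was 0.61 and 1.00 in E14 replicates 1 and 2, with median total H3K27me3 at -0.80 and -0.99. WT clones 57 and 58 had medians of 2.37 and 1.15, against -0.52 and -0.71. DKO clones 43 and 53 had 1.99 and 1.63, against -0.64 and -0.47. A call toward H3K4me3 therefore does not by itself set a member apart from these regions. Pbx3 read 0.71 and 1.16 in E14 cells, a mean of 0.94 that missed the threshold of 1 (95% interval 0.32 to 1.55, limma adjusted p = 0.0152), and it was called in WT (2.24) and DKO (1.40). All 4 WT calls were lost when either WT total H3K27me3 library was left out (limma adjusted p between 0.094 and 0.416), with balances of 1.96 to 3.42, which then rest on 1 library for that mark. The differences between lines were not tested. The interval of Pbx3 in WT clones ran from 0.74 to 3.74 and holds the DKO value.

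The Meis genes had a balance near 0. Meis1 read -0.41 and -0.05 in E14 cells, -0.29 and -0.33 in WT and -0.63 and -0.11 in DKO clones. Meis2 read -0.42 and 0.04 in E14 cells, -0.33 and -0.39 in WT and -0.10 and 0.23 in DKO. Meis3 read -0.25 and -0.60 in E14 cells, where its total H3K4me3 was near IgG–IgG, -0.14 and -0.45 in WT and -0.03 and -0.26 in DKO. Pknox2 had means of -0.35, -0.03 and -0.02 in E14, WT and DKO. The 95% intervals of these 4 genes all held 0, and in WT they reached 1.06 to 1.40 above it, so a balance of 1 lay inside them in this fit, which does not pair the totals of a clone. Within replicates and clones the balance of Meis1 and Meis3 was below 0 in 6 of 6 pairs. With every library centred on its median over all regions these 4 genes read between -0.98 and -0.20 in the 3 lines, with no call, which turns the sign of Meis2 in DKO. Pbx2, Pbx4 and Pknox1 kept their calls under that scaling.

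Ordered by mean balance in E14 cells, the members ran from Meis3, Pknox2, Meis1 and Meis2 through Pbx3, Pbx4 and Pbx2 to Pknox1. Replicate ranges overlapped among the first 4 and between Pbx3 and Pbx4. A gap without overlap separated the first 4 from Pbx3 in E14, WT and DKO alike. In the WT clones the ranges of Pbx3, Pbx4, Pbx2 and Pknox1 overlapped between neighbours. In the DKO clones Pbx3 (1.28 and 1.51) lay apart from Pbx4 (3.04 and 2.53), and Pknox1 lay apart from Pbx2 (3.46 and 2.39).

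**Figure D3:**
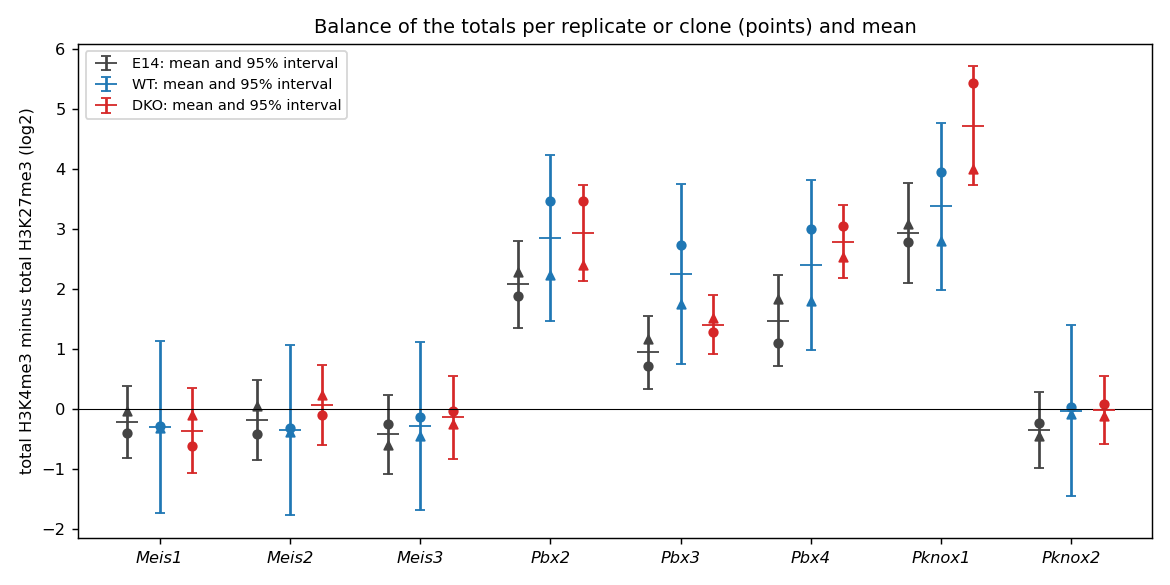
Total H3K4me3 minus total H3K27me3 (log2, vertical axis) in the shared region of each member, with a point per replicate or clone and a bar for the mean with its 95% limma interval in E14, WT and DKO. The Meis genes and Pknox2 lie around 0, and Pbx2, Pbx4 and Pknox1 lie above it in all 3 lines.

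The balance depended on how wide a stretch was read. In the narrower total H3K4me3 regions of the E14 table, Meis1 (3750 bp) had a mean balance of 0.67 in E14 cells, Meis2 (3450 bp) 1.12, Meis3 (1800 bp) 0.79 and Pknox2 (3450 bp) 0.86. These regions come from the table of total H3K4me3, one of the marks compared, so a balance toward it is favoured by the choice of region and the values are given with no test. Meis2 read 0.86 in WT and 1.08 in DKO there, and Meis3 1.43 in WT and 1.30 in DKO. In the E14 total H3K27me3 region of Pknox2, which is 1800 bp wide, lies upstream of its start site and comes from the table of H3K27me3, the balance was -1.55 in E14 cells, -1.40 in WT and -1.46 in DKO. Pbx2, Pbx4 and Pknox1 had larger values in their total H3K4me3 regions too, at 2.63, 1.98 and 3.23 in E14 cells.

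DKO clones were compared with WT clones to ask whether loss of DPPA2 and DPPA4 moved these promoters. For this the region of the WT table was used, or that of the DKO table where the WT table had none, and p-values were adjusted over all regions of both tables. No member was called in any ChIP. In total H3K4me3 2.72% of all regions were called (0.254% higher and 2.47% lower in DKO), and in total H3K27me3 2.75% (0.976% and 1.78%). The reChIP calls were nearly all lower in DKO. They made up 1.19% of regions in K4-K27 (0.00557% higher, 1.19% lower) and 2.26% in K27-K4 (0.027% and 2.24%). The limma adjusted p of the members lay between 0.522 and 1. At p under 0.05 without adjustment no member passed either, the lowest being 0.253 for Meis2 in K27-K4.

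Among the Meis genes, Meis2 had the largest difference in the regions of the WT tables, in K27-K4, with 3.15 and 2.49 in WT clones 57 and 58 and 2.48 and 2.02 in DKO clones 43 and 53. The groups were barely apart, and the difference was -0.57 (SE 0.49, 95% interval -1.54 to 0.41, adjusted p = 0.522). Meis3 went the other way without a call, at 2.46 and 1.95 in WT and 2.70 and 2.6 in DKO (difference 0.44, interval -0.51 to 1.40). At Pbx4, too, both DKO clones (1.96 and 2.10) stood above both WT clones (1.66 and 1.55), by 0.43. These were 3 of 6 members whose groups did not overlap, where 51.9% of all K27-K4 regions had such groups. Meis1 read 3.23 and 2.43 in WT and 2.74 and 2.25 in DKO (difference -0.34, interval -1.34 to 0.67). The order of these genes depended on the region, since in the shared E14 regions the K27-K4 differences were -0.64 for Meis1 and -0.42 for Meis2, not called.

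In K4-K27 the differences of the 8 members ran from -0.27 (Pknox2) to 0.22 (Pbx2), with a median of -0.05 where that of all regions was -0.01. For Pbx3 the values were 4.43 and 3.69 in WT and 4.37 and 3.67 in DKO clones, a difference of -0.04 with an interval of -1.40 to 1.31. Pbx2 read 2.43 and 2.25 in WT and 2.58 and 2.53 in DKO, the only member whose K4-K27 groups did not overlap (interval -0.94 to 1.37), as in 38.9% of all regions.

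Total H3K4me3 differed by between -0.10 (Pbx3) and 0.36 (Meis2), with a median of 0.15 against 0.13 over all regions. The WT clones enclosed both DKO clones at all 8 genes (30.5% of all regions had groups without overlap), as at Pbx4 with 3.46 and 1.97 in WT and 3.39 and 2.74 in DKO. Intervals were correspondingly wide, -1.40 to 2.10 for Pbx4. Total H3K27me3 had regions for 4 members, and their groups overlapped, where 44.5% of all regions did not. Meis2 read 1.43 and 0.54 in WT and 0.79 and 0.66 in DKO (difference -0.26, interval -1.08 to 0.55), and Pknox2 1.68 and 0.88 in WT and 1.45 and 1.34 in DKO (difference 0.12, interval -0.69 to 0.92). Pbx3, with no region in these tables, stood higher in both DKO clones than in both WT clones in its shared E14 region, by 0.75 (95% interval -0.0015 to 1.51, limma adjusted p = 0.519). It was not called, and it was singled out after its values were seen.

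**Figure D4:**
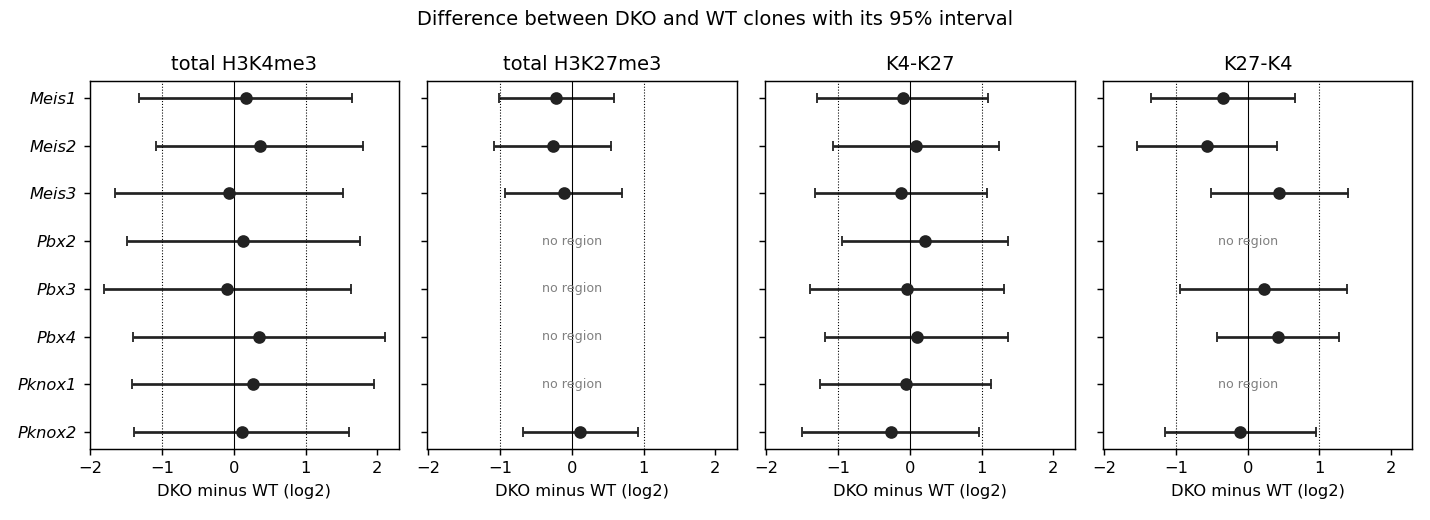
Difference between DKO and WT clones (log2, horizontal axis) for each member and ChIP with its 95% limma interval, and dotted lines at a difference of 1 either way. All intervals hold 0, and most reach past 1 in at least one direction, so differences of that size were not detectable at many of these promoters.

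Genes related by function were read the same way. Of 9 other TALE genes (Tgif1, Tgif2, Mkx and Irx1 to Irx6), all had a K4-K27 region in the clones and 7 a K27-K4 region, and 1 was called lower in DKO in each (1.19% and 2.24% of all regions), Irx6 in both cases. Irx6 fell by 2.05 in K4-K27 (adjusted p = 0.0434) and by 1.72 in K27-K4 (adjusted p = 0.016). The list's medians were -0.46 in K4-K27 and -0.67 in K27-K4, where all regions had -0.01 and -0.15, and the members had -0.05 and 0.06. Of 8 Hox genes of paralogue groups 1 to 3, which encode partners of Pbx and Meis proteins, none was called by limma in any ChIP and none had an unadjusted p under 0.05, with medians of -0.35 (K4-K27) and -0.24 (K27-K4). Their balance of totals had medians of -0.53, -1.15 and -1.06 in E14, WT and DKO, and 1, 0 and 8 genes were called toward H3K27me3, on 5 distinct regions, since neighbouring Hox genes shared a region, where 19.2%, 10.7% and 19.2% of all regions were called that way. Of the other TALE genes 2 of 9 were called toward H3K4me3 in each line (38.7%, 33.5% and 34.8% of all regions), and 0, 0 and 3 toward H3K27me3. The difference between lines was not tested.

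The genes whose pattern over the 24 libraries other than IgG–IgG was most like that of Meis2 were Tfap2a, a transcription factor of neural crest and epidermis (Pearson r = 0.99, in a region shared with Gm26688), C130071C03Rik (r = 0.98) and Msx2, a homeobox gene of craniofacial development (r = 0.98). Of the other members, Pknox2 had r = 0.96 with Meis2, Meis1 0.96, Meis3 0.93, Pbx3 0.76 and Pbx4 0.52. Pknox1 had r = 0.31 and Pbx2 0.28. These points share ChIP, library and sequencing batch, which move many regions together, and the values are given as a description. The Pknox2 value was above that of 99.6% of all K27-K4 regions, and that of Pbx2 above 53.9%.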

How the data were processed

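The authors trimmed reads with TrimGalore (0.6.6), aligned them to mm10 (GRCm38.p6) with BWA (0.7.13) and quantified regions in SeqMonk from alignments of mapping quality over 20, extended by 200 bp, with duplicates kept. The values deposited are log2 RPM per kb of region, without IgG–IgG subtraction, in 12 tables. Peaks of the study were called with EPIC2, and the labels also name MACS2 without its role, but neither is tied to these tables, whose region edges all lie on a grid of 150 bp. How these regions were called is therefore not given in the sources used here. All values under 60 reads stepped in whole reads (tolerance 0.02), with 0.9 reads entered for 0. Columns were matched to samples by name, 240 were used, and 32 that belong to no sample of the series were not.

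The members and gene lists were chosen with earlier results of these data known. All 8 members were named, with Dppa2 and Dppa4, genes of both lists that were called in DKO against WT, and the 3 promoters with the highest Pearson correlation with Meis2.

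Start sites were those of curated RefSeq transcripts. Tests used limma 3.58.1 in R 4.3.3 (lmFit, then eBayes with trend and robust estimation) with Benjamini-Hochberg adjustment over all regions of the tables concerned. A count test had been planned for count files, and limma was used because the files hold log2 values. With 2 clones or replicates a group, p-values rest on the spread of single cell lines or passages. Python 3.11.15 with pandas 2.3.3 and matplotlib 3.10.9 did the rest.

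On simulated data with 200 regions shifted by 3 log2 units, the test of DKO against WT recovered 42% of them in total H3K4me3, 91.5% in total H3K27me3, 42.5% in K27-K4 and 37.5% in K4-K27, and the balance 41.5%, 25.5% and 53% in E14, WT and DKO. Depth ranged from 6741244 to 47903462 reads (median 16875025), and a member's shared region held between 8 and 8135 reads in a library.

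Total H3K4me3 and total H3K27me3 of 1 replicate or clone share their cells, and this pairs the libraries, although deviations from group means correlated at -0.102, -0.0767 and -0.0984 in E14, WT and DKO. Fits without the pairing are reported. Alternatives covered scaling, variance model, low regions, region set, pairing, promoter width and each library left out.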

Additional observations from a re-analysis of the deposited data

How the results depend on the processing

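No member was called in DKO against WT under any alternative run, although 41 of 234 member values changed sign. The counts over all regions moved more. For total H3K4me3 the 1745 regions called became 3899 with libraries centred on their medians, 3040 with quantile normalization and 336 without the lowest quartile. Total H3K27me3 went from 1468 to 0 with limma under median centring (2978 higher and 4711 lower at an unadjusted p under 0.05), to 1 with quantile normalization and to 314 without the lowest quartile. For K4-K27 the 643 became 7715 with neither variance trend nor robust estimation, and 1555 in the regions of the E14 tables. Leaving out single clones gave 74 (without DKO clone 53), 114 (without DKO 43) and 6018 (without WT 58) for total H3K4me3. Total H3K27me3 gave 133 (DKO 43), 357 (WT 58), 517 (DKO 53) and 650 (WT 57). K4-K27 gave 243 (DKO 53), 261 (WT 57), 265 (DKO 43) and 558 (WT 58), and K27-K4, with 1341 called, gave 482 (DKO 43), 508 (DKO 53), 4130 (WT 57) and 8630 (WT 58). The cause was not tested.

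The balance of the WT clones rested on both total H3K27me3 libraries. Its 36055 calls became 12761 without clone 57 and 17487 without clone 58, up to 48147 without the total H3K4me3 of clone 58. Pbx2, Pbx3, Pbx4 and Pknox1 lost their WT calls without either total H3K27me3 library, with adjusted p between 0.094 and 0.416 and values of 1.96 to 3.42. A lone library was assumed to vary like the others. Pbx3 was called in E14 cells without total H3K4me3 replicate 1 (1.11). Median centring moved the median balance of all regions from 0.37 to -0.09 in E14, from 0.36 to -0.26 in WT and from -0.10 to -0.37 in DKO. The split of calls toward H3K4me3 and H3K27me3 moved with it, from 31522 and 15671 to 26252 and 24984 in E14, from 27315 and 8740 to 25427 and 23784 in WT, and from 28357 and 15651 to 26744 and 23207 in DKO. The Meis genes and Pknox2 then read -0.64 to -0.88 in E14 cells, not called, and Pbx2, Pbx4 and Pknox1 kept their calls. With the replicate block the balance had 47797, 37835 and 41915 calls in E14, WT and DKO, and no member's call changed. Promoters of 500 bp listed 74 gene and table combinations and those of 5 kb 79, against 75.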
